A study of Oryza sativa with 30 samples.

Results

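Class III peroxidases are the secreted, haem-containing peroxidases of plants, a family that in rice has far more members than any other peroxidase family. The members studied were the genes whose name in the deposited annotation began with prx or POX, or whose description named a numbered plant peroxidase. The rule gave 166 of 43019 listed genes, 96 by name, 153 by description and 83 by both, on all 12 chromosomes. The label fitted the domain annotation for most of them, since 143 carried the plant peroxidase domain and 23 did not. The exceptions by description were prx56, described as a pentatricopeptide repeat protein with no peroxidase domain, and prx73, which had no description.

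Class III peroxidases use hydrogen peroxide to oxidise phenolic compounds in the cell wall and apoplast. The products crosslink lignin, suberin and wall proteins, and the same enzymes can also generate reactive oxygen species. In grasses they are known as genes of wounding, pathogen attack and wall stiffening, and many are most active in roots. Phenylpropanoid enzymes make their phenolic substrates, NADPH oxidases and superoxide dismutases supply hydrogen peroxide, and catalases, ascorbate peroxidases, glutathione peroxidases and peroxiredoxins remove it inside cells.

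The 30 libraries came from leaves of rice (Oryza sativa) seedlings cultivated for 14 days at 26 °C. The untreated groups were DJ, labelled wild type, with 2 libraries, the ku70 mutant with 2, ATM, labelled wild type, with 3, the atm-1 mutant with 3, TOP6A3, labelled wild type, with 1, the top6a3 mutant with 3, and the atr mutant with 1. Sampled 6 h after 40 Gy of 60Co gamma rays were DJ and ku70 with 2 libraries each, the overexpressor TOP6A3-OE1 with 1, and TOP6A3-OE1 atm-2, which joins the overexpressor to an atm mutation, with 1. Sampled 6 h after 70 Gy were ATM and atm-1 with 3 libraries each and atr with 1, and ATM and atm-1 with 1 library each were kept at 4 °C for 24 h. What the mutations are, which promoter drives the overexpressor and whether replicates came from separate plants: not given in the sources used here. Each p-value therefore measures only how libraries vary within groups, with the spread pooled over all groups fitted together.

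Levels are in FPKM, fragments per kilobase of gene at a common library size (a unit read from the values, since they are whole multiples of a step once multiplied by gene length), which allows levels of different genes to be compared. Reads recovered from them ran from 10364355 to 16477147 per library. By these steps and the genes listed, the 10 libraries of DJ, ku70 and both TOP6A3-OE1 lines were taken to be scaled apart from the 20 others, and each set was tested on its own. In atm-1 control replicate 1 and ATM 70 Gy replicate 3, 1.53% and 1.70% of the detected genes had 1 to 10 reads, while the rest of the set had 10.8% to 21.8%. These 2 libraries held reads for 46 and 48 peroxidase genes, against 63 to 93. ATM 70 Gy replicate 3 also had the highest root marker sum of its set (53.0 FPKM, others 1.25 to 20.9), with 2 of the 3 root markers at 0. In the second set the share was 1.22% to 8.30%, except for 20.8% in TOP6A3-OE1 atm-2. The transcript of KU70 stood at 7.85 to 37.8 FPKM in the 4 libraries labelled ku70 and at 0.319 to 5.31 FPKM in the 4 of DJ. It was thus not lower under the mutant label, and what the allele does to the transcript is not given. That of TOP6A3 stood at 1899 FPKM in the library labelled TOP6A3, at 3.57 to 4.03 in top6a3, and at 4.49 and 3.97 in the libraries labelled TOP6A3-OE1 and TOP6A3-OE1 atm-2, which again goes against the labels of a wild type and of overexpressors. ATM stood at 0.850 to 7.25 FPKM in atm-1 and 2.26 to 6.35 in the ATM line. ATR stood at 0.206 and 1.12 FPKM in atr, against 0 to 5.23 in the other libraries scaled with them. Leaf mesophyll marker genes (chlorophyll a-b binding proteins and the Rubisco small subunit) summed to between 2895 and 77892 FPKM, so leaf tissue was present in every library. In bulk leaves, fewer cells of a type and less RNA per cell cannot be told apart.

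Peroxidase genes lay close together. Of the 166 members, 135 fell into 39 runs in which neighbouring members lay at most 50000 bases apart, the longest of 9 genes. Another gene overlapped 68 members, with 33 pairs formed by 2 members on opposite strands, and whether counting used the strand is not stated, so the levels of these members are uncertain. Near-identical copies within a run can share reads in the same way. Most of the family lay at or near 0 in leaves. No read was found for 42 members in any library, 77 reached the level needed for a test in the 20 libraries and 62 in the 10 (at least 1 FPKM in 2 libraries or more).

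Few genes made up most of the peroxidase transcript. The 8 members with the highest mean over the 20 libraries were prx59 (122 FPKM), prx61 (117), prx22 (108), prx20 (108), prx29 (108), prx65 (91.6), OsPOD (81.5) and prx62 (59.6). Over the 10 libraries they were prx59 (85.7 FPKM), prx20 (74.6), POX8.1 (71.1), prx65 (68.3), OsPOD (66.6), PRX125 (62.4), prx29 (48.1) and POX22.3 (36.7). Several of these genes are neighbours. prx59, prx60, prx61, prx62, prx63 and prx64 form a single run on chromosome 4 (35187443 to 35246736 in the authors' coordinates, on an assembly not given in the sources used here), and prx20 and prx22 lie with the unread prx21 on chromosome 1 (42429502 to 42442936). All but prx59 in these runs were annotated as closest to a cationic peroxidase named SPC4.

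The summed peroxidase level differed widely between libraries of a group. It was 612, 1990 and 950 FPKM in ATM controls, and 666, 538 and 716 in atm-1 controls. At 70 Gy it was 1818, 1360 and 412 FPKM in ATM and 1901, 1324 and 1201 in atm-1. The ATM libraries overlapped between control and 70 Gy, while the 3 atm-1 libraries at 70 Gy lay above their 3 controls. The single TOP6A3 library had the lowest sum of all 30, 245 FPKM, and the 3 top6a3 libraries had the highest of the 20, 3155, 3295 and 2513 FPKM.

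**Figure D1:**
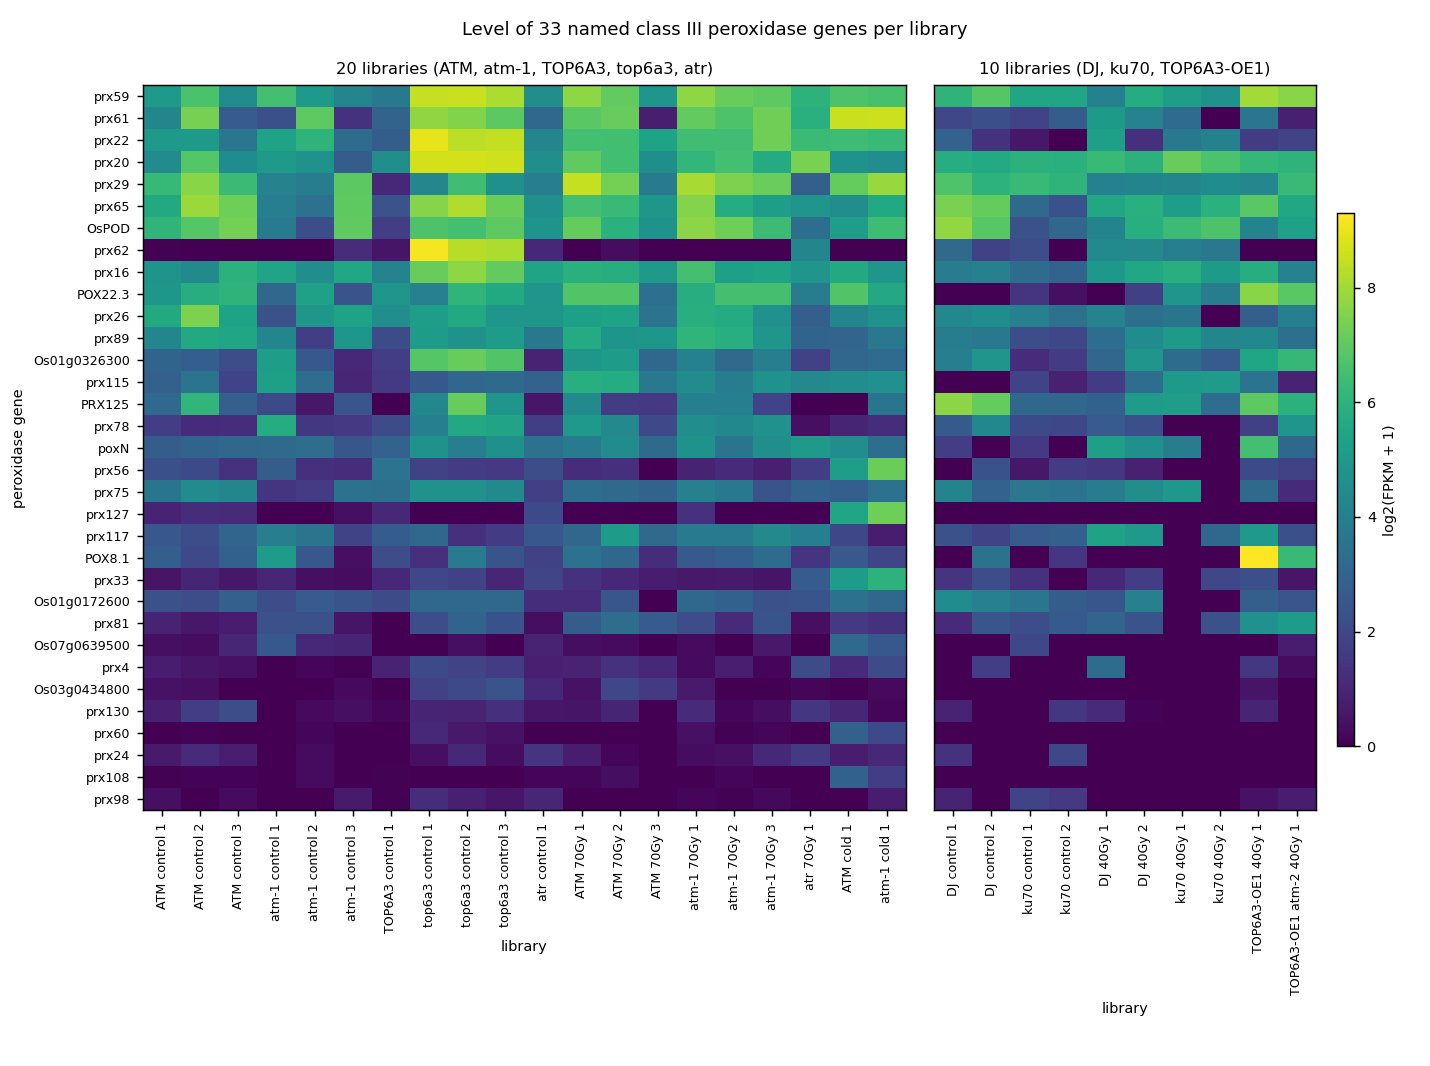
Levels of the 33 named peroxidase genes, as log2(FPKM + 1) by colour, with 1 row per gene and 1 column per library. The left panel holds the 20 libraries scaled together and the right panel the 10 others. prx62 is bright in the 3 top6a3 libraries, and prx127, prx33 and prx56 in the 2 cold libraries.

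Tests used limma on log2(FPKM + 1), and a gene was called where its p, adjusted by the Benjamini-Hochberg method over all genes of the comparison, was under 0.05. Log2 differences are on that scale and understate the change of low genes. The share of peroxidase genes called is set beside the share of all genes called in the same comparison.

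**Figure D2:**
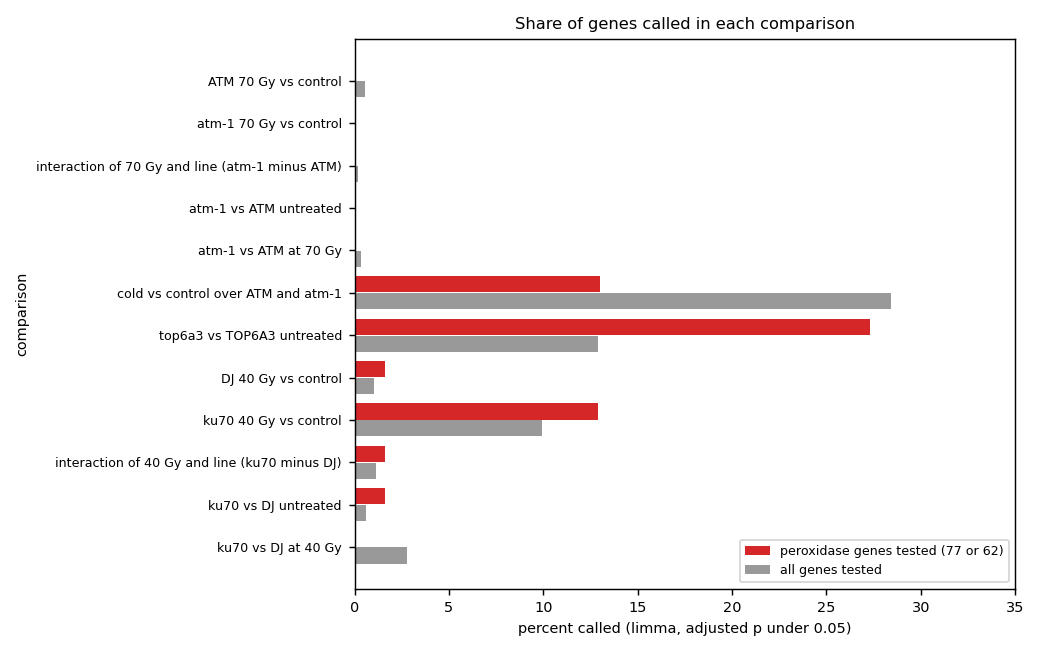
Percent of tested peroxidase genes (red) and of all tested genes (grey) called in each of the 12 comparisons. The red bar is longer than the grey one in top6a3 (27.3% against 12.9%) and shorter in the cold (13.0% against 28.4%).

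The comparison of top6a3 with TOP6A3 in untreated leaves showed the most peroxidase calls. Of 77 members tested, 21 rose and 0 fell (27.3%), against 12.9% of all 24582 genes called, 8.18% upward and 4.70% downward. The median log2 difference was 1.40 over the members and 0.06 over all genes, and 68 members were higher and 9 lower. Of the called members, prx95, PRX45, prx77 and prx37 reached the level needed for a test only through the top6a3 libraries, so they had to differ. Among the 69 members that passed on the other 17 libraries, 17 rose and 0 fell (24.6%), a count added after seeing the data. Of all 23666 genes passing so, 11.2% were called in either direction, 1530 rising and 1124 falling. The only reference is the library labelled TOP6A3, so its spread was taken to be that of the other groups, and every direction below rests on that label, which its TOP6A3 level goes against.

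The largest rise was that of prx62 (Os04g0688500, chromosome 4, 35215245 to 35216755). It stood at 574, 314 and 283 FPKM in the 3 top6a3 libraries and at 0.423 FPKM, 9 reads, in the library labelled TOP6A3. Elsewhere in the 20 libraries it reached 18.4 FPKM in atr at 70 Gy and at most 1.25 FPKM in the others. The log2 difference was 8.03 ± 0.46 (SE, adjusted p = 1.2e-07).

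Its neighbour prx59 stood at 354, 366 and 284 FPKM in top6a3 and at 12.5 in the library labelled TOP6A3 (log2 difference 4.62 ± 1.05 SE, adjusted p = 0.012). In the same run prx60 also rose, to 1.11, 0.555 and 0.362 FPKM from a level listed at 0 (log2 difference 0.72, adjusted p = 0.038). By contrast prx63 stood at 2.64, 4.43 and 4.60 FPKM against 4.19 and was not called (adjusted p = 0.97). prx61 stood at 217, 185 and 124 FPKM against 6.72, with no overlap and no call (log2 difference 4.48 ± 2.49 SE, adjusted p = 0.27).

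On chromosome 1, prx22 stood at 491, 332 and 344 FPKM in top6a3 and at 5.66 in the library labelled TOP6A3 (log2 difference 5.85 ± 0.88 SE, adjusted p = 0.00073). Next to it, prx20 stood at 412, 415 and 400 FPKM against 23.2 (4.08 ± 1.07 SE, adjusted p = 0.025), a call that ended in 3 of 3 cases when 1 top6a3 library was left out (adjusted p up to 0.054). A second run of 7 genes there (12499923 to 12582256) held 4 called members. Of these, Os01g0326300 stood at 114, 139 and 108 FPKM against 2.22 (5.23 ± 1.16 SE, adjusted p = 0.011), and prx16 at 141, 210 and 132 FPKM against 16.7 (3.16 ± 0.65 SE, adjusted p = 0.0064). All 3 top6a3 libraries lay above the library labelled TOP6A3 for each of these genes, which were called on the same libraries.

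For other called members the reference library was low against the rest of the set. prx65 stood at 194, 294 and 149 FPKM in top6a3 and at 4.23 in the library labelled TOP6A3 (5.29 ± 1.28 SE, adjusted p = 0.017), yet ATM controls held 49.5, 241 and 150 FPKM. OsPOD stood at 104, 90.4 and 125 FPKM against 2.35 (4.99 ± 1.35 SE, adjusted p = 0.029, lost in 3 of 3 cases with 1 top6a3 library left out), and ATM controls held 66.9, 115 and 164 FPKM. PRX125 stood at 18.8, 139 and 28.0 FPKM and was listed at 0 in that library (adjusted p = 0.036, lost in 2 of 3 such cases). For these 3 genes the top6a3 libraries overlapped the other untreated libraries.

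Against all 17 other libraries of the set, 8 of the 17 members called on that basis were higher in every top6a3 library: prx62, prx15, prx72, prx22, prx16, Os01g0326300, prx59 and prx20. The other 9 were not. Over the 69 members 13.0% lay so, against 4.89% of all genes passing in the same way. Without the 2 libraries of few low-read genes, 35 members rose and 2 fell (48.7% of those tested, against 32.7% of all genes).

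Some marker sums of other tissues also differed in the same libraries. The 3 root markers summed to 18.0 to 20.9 FPKM in top6a3, 7.72 in the library labelled TOP6A3 and 2.01 to 15.9 in the other untreated libraries of the set, with 2 of 3 at 0 in all but 1 top6a3 library. The 5 secondary wall and vascular markers summed to 11.7 to 22.5 FPKM in top6a3 against 2.88 in that library and 0.280 to 11.7 elsewhere untreated. Mesophyll markers summed to 26029 to 41371 FPKM against 17474. The sums of the 2 remaining lists lay closer together. Proliferating cell markers summed to 190 to 229 FPKM in top6a3, and epidermis and cuticle markers to 639 to 681. These sums were 203 and 623 FPKM in the library labelled TOP6A3. Os06g0204100, described as a p-coumarate 3-hydroxylase, stood at 129 FPKM in that library and 213 and 88.0 in the atr libraries and was listed at 0 in the other 17. The part of these differences in the peroxidase calls was not tested.

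**Figure D3:**
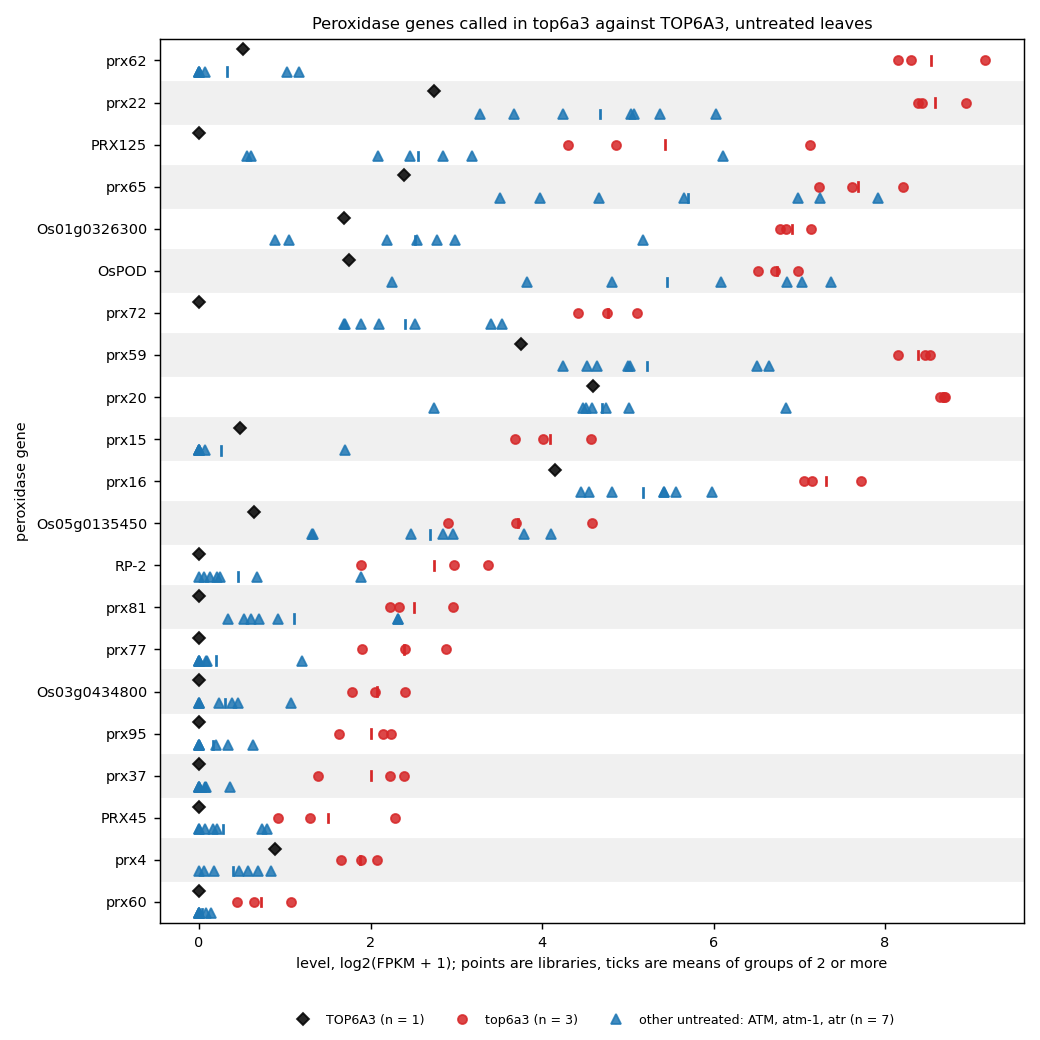
Levels of the 21 called members as log2(FPKM + 1), for TOP6A3 (diamond, 1 library), top6a3 (circles, 3 libraries) and the 7 other untreated libraries of ATM, atm-1 and atr (triangles). The circles lie to the right of the diamond for every gene, and overlap the triangles for prx65, OsPOD, PRX125, Os05g0135450, prx81 and RP-2.

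Of 77 phenylpropanoid and monolignol genes tested in top6a3, 26 rose (33.8%, against 8.18% of all genes) and 1, Os06g0204100, fell, with a median log2 difference of 0.95 against 0.06 over all genes. The phenylalanine ammonia-lyase OsPAL (Os02g0626100), the first enzyme of the pathway, stood at 1845, 1593 and 1576 FPKM against 10.8 in the library labelled TOP6A3 (log2 7.14, adjusted p = 0.00017), and at 115 to 1076 FPKM in ATM and atm-1 controls. Among laccases, which also oxidise monolignols, 2 of 13 rose and 1 fell. Of NADPH oxidases 1 of 10 rose (rbohG, log2 2.34), and catalase CATC fell from 853 FPKM to 108, 335 and 193 (log2 -2.15, adjusted p = 0.014), while the median over the 4 catalases was 2.20. Of 7 superoxide dismutases 1 fell, OsFSD1.1, from 119 FPKM to 21.9, 25.2 and 16.9 (log2 -2.44, adjusted p = 0.034). Ascorbate peroxidases, glutathione peroxidases and peroxiredoxins had 0 calls among 10, 7 and 9 tested.

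After 24 h at 4 °C, over ATM and atm-1, 10 of 77 peroxidase genes rose and 0 fell (13.0%). All genes were called at 28.4%, with 15.6% rising and 12.9% falling, so the share that rose was near that of all genes. Of the 10, prx108 and prx60 reached the level needed for a test only through the cold libraries, so they had to differ. Among the 74 members that passed on the other libraries, 8 rose and 0 fell (10.8%), a count again added after seeing the data. Of all 24134 genes passing so, 27.6% were called in either direction, 3492 rising and 3164 falling. The 10 called members lay above all 3 controls in ATM, and 9 of them in atm-1. Mesophyll markers summed to 3183 and 7084 FPKM in the cold libraries against 14822 to 29939 in the controls, and the part of this in the calls was not tested.

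prx127 (Os10g0536600, chromosome 10, 20895706 to 20895936, a gene model of 231 bases with no peroxidase domain) stood at 44.0 FPKM in cold ATM and 151 in cold atm-1. Its controls held 0.859, 1.35 and 1.19 FPKM in ATM and 0, 0 and 0.313 in atm-1. The log2 difference was 5.76 ± 0.29 (SE, adjusted p = 2.9e-08). Its 2 cold libraries held 91 and 318 reads.

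prx33 (Os03g0121200) stood at 34.7 and 64.0 FPKM in the cold and at 0.240 to 0.999 in the 6 controls (4.97 ± 0.29 SE, adjusted p = 1.3e-07). prx56 stood at 35.5 and 147 FPKM against 1.26 to 5.70 (4.39 ± 0.45 SE, adjusted p = 2.2e-05), but its description is that of a pentatricopeptide protein. prx60 stood at 6.25 and 3.19 FPKM against at most 0.0979, and prx108 at 6.35 and 2.19 against at most 0.212. Cold and control libraries did not overlap for these 5 genes, which were called on the same libraries. prx127 and prx33 are close neighbours of other members, and prx33 overlaps Os03g0121250 on the other strand.

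Of the other 5 called members, prx90 stood at 6.08 and 28.4 FPKM in the cold against 1.75 to 4.71 in controls. Os07g0639500, next to prx108 on chromosome 7, stood at 7.96 and 4.88 FPKM against 0.231 to 4.90 in controls. prx90, prx87, Os01g0172701 and prx4 rose by 1.29 to 1.83 on the log2 scale. prx4 and prx60 were the members called both here and in top6a3, out of 10 and 21 called. These comparisons share no library but come from 1 fit of the same 20 libraries with a pooled spread, so they are not independent. In top6a3 prx60 stood at 0.362 to 1.11 FPKM, and it could be tested there only because of its level in the cold libraries. In top6a3 27.3% of the tested members were called, and the share of all genes called in both was not counted. The call of prx4 in top6a3 was lost in 1 of 3 cases with a library left out.

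The most abundant peroxidase in both cold libraries was not called. prx61 stood at 372 and 387 FPKM, the highest 2 of the 20 libraries, but its controls held 18.5, 166 and 5.46 FPKM in ATM and 3.86, 127 and 1.501 in atm-1 (4.41 ± 1.76 SE, adjusted p = 0.082). Without the 2 libraries of few low-read genes it was called (4.10 ± 1.39 SE, adjusted p = 0.032).

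**Figure D4:**
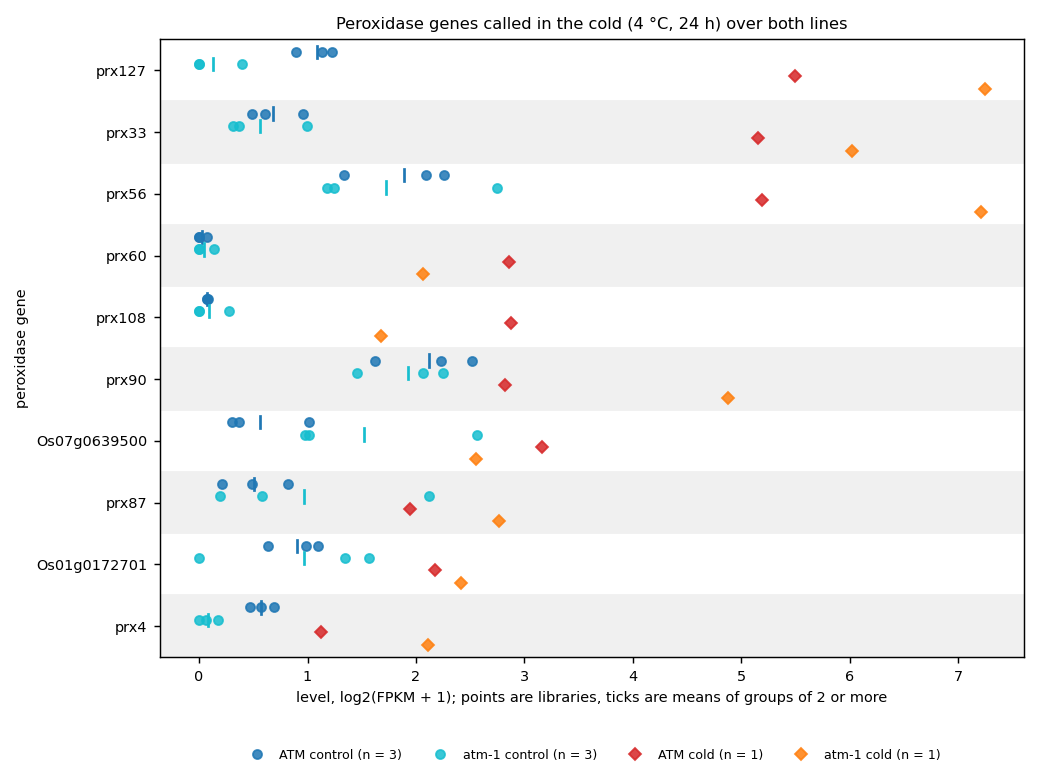
Levels of the 10 members called in the cold as log2(FPKM + 1), for ATM and atm-1 controls (circles, 3 libraries each) and the cold library of each line (diamonds). Diamonds lie to the right of every circle for prx127, prx33, prx56, prx60 and prx108.

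In the cold, 22 of 77 phenylpropanoid genes rose (28.6%, against 15.6% of all genes) and 4 fell (5.19%, against 12.9% of all genes). OsPAL1 (Os02g0627100) stood at 3345 and 1450 FPKM against 3.87 to 25.8 in controls (log2 7.30, adjusted p = 4.9e-07). Of 10 NADPH oxidases 4 rose, among them OsrbohI (log2 2.03), which stayed at 4.01 and 3.78 FPKM. Superoxide dismutases had 1 rise and 3 falls among 7, ascorbate peroxidases 1 and 2 among 10, glutathione peroxidases 2 and 0 among 7, peroxiredoxins 0 and 1 among 9, and catalases and laccases 0 calls among 4 and 13.

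No peroxidase gene was called after 70 Gy. In ATM, 0 of 77 were called against 0.525% of all genes, and 16 had an unadjusted p under 0.05 (20.8%, against 12.2% of all genes). In atm-1, 0 were called among members and 0% of all genes, and 13 members had an unadjusted p under 0.05 (16.9%, against 7.64% of all genes). The nearest in ATM was prx81, at 5.71, 8.99 and 5.30 FPKM against 0.896, 0.526 and 0.622 in controls, with no overlap (log2 2.16 ± 0.47 SE, adjusted p = 0.083). prx127 was next, listed at 0 in all 3 irradiated libraries against 0.859 to 1.35 FPKM (adjusted p = 0.17).

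In atm-1 the smallest p-values were those of poxN and Os07g0639500, both with adjusted p = 0.56. poxN stood at 26.3, 10.9 and 23.5 FPKM after 70 Gy against 8.30, 9.01 and 4.67, again with no overlap. Os07g0639500 stood at 0.204, 0 and 0.554 FPKM against 4.90, 1.03 and 0.964. Limma-voom on recovered reads also called 0 members in both lines.

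Counts in both 70 Gy comparisons changed when the 2 libraries of few low-read genes were left out together. Leaving out 1 library of the groups compared gave 0 to 1 called members in ATM and 0 in atm-1. Without both, 5 members rose in ATM (6.58% of those tested, against 6.81% of all genes) and 1 in atm-1 (1.32%, against 0.0493% of all genes). With array weights, which let limma weigh libraries by their fit, 23 were called in ATM (29.9%, against 24.5% of all genes) and 15 in atm-1 (19.5%, against 10.8%). The 5, named after their values were seen, were prx78, prx115, Os01g0326300, prx81 and prx59, and the 1 was prx78. prx78 stood at 31.3 and 19.9 FPKM in ATM replicates 1 and 2 at 70 Gy and 3.11 in replicate 3, against 1.23 to 2.19 in controls. In atm-1 it stood at 22.4, 19.3 and 24.8 FPKM at 70 Gy and at 52.7, 1.82 and 1.90 in controls, so the high control is replicate 1.

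No peroxidase gene was called between the atm-1 and ATM lines with equal library weights. The response to 70 Gy differed between atm-1 and ATM for 0 of 77 members (0.167% of all genes; 10 members, 13.0%, with an unadjusted p under 0.05, against 8.41% of all genes), with the smallest p for prx127 (adjusted p = 0.54) and prx24 (adjusted p = 0.57). Untreated atm-1 and ATM differed for 0 members and 0% of all genes (15 members, 19.5%, with an unadjusted p under 0.05, against 5.41% of all genes). There prx130 stood at 0.766, 2.19 and 3.76 FPKM in ATM and 0, 0.171 and 0.299 in atm-1, and prx75 at 11.3, 21.2 and 18.2 against 1.66, 2.10 and 10.03, both with adjusted p = 0.71. At 70 Gy the lines differed for 0 members and 0.330% of all genes (3 members, 3.90%, with an unadjusted p under 0.05, against 4.9996% of all genes), with the smallest p for prx4 (adjusted p = 0.44) and Os03g0434800 (adjusted p = 0.60). Limma-voom called 0 members in each of these 3 comparisons. Array weights called 9 for the interaction (11.7%, against 5.09% of all genes), 0 in untreated leaves (0.0163% of all genes) and 11 at 70 Gy (14.3%, against 12.8%), and leaving out ATM 70 Gy replicate 1 or replicate 2 gave 1 at 70 Gy. The 8 lists of related enzymes also had 0 calls in the 5 comparisons of ATM and atm-1 without cold.

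The atr line has 1 library untreated and 1 at 70 Gy, so no test was made. Of 56 members at 1 FPKM or more in either library, 9 differed by 2 or more on the log2 scale, 5 higher and 4 lower after 70 Gy, against 4.60% of all genes, 1.20% higher and 3.40% lower. With a pseudocount of 0.1 there were 16 (28.6%, against 10.1% of all genes). prx20 stood at 22.9 FPKM untreated and 170 after 70 Gy, prx61 at 7.92 and 58.7, and prx22 at 18.0 and 80.5. prx26 went the other way, at 29.6 and 6.00 FPKM. prx62, at 1.04 and 18.4 FPKM, had the largest log2 difference, 3.25, and prx20, prx22 and prx62 were also among those that rose in top6a3. There 27.3% of the tested members were called, all of them rises against the 1 library labelled TOP6A3. The share of all genes higher in both was not counted. Mesophyll markers summed to 16276 and 2895 FPKM in the 2 libraries.

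In DJ, 1 of 62 peroxidase genes tested was called after 40 Gy, a fall, against 1.03% of all 23063 genes and 0.546% falling. This was prx29 (Os02g0240300, chromosome 2, 7948543 to 7949997), at 106 and 64.1 FPKM untreated and 16.0 and 17.2 after 40 Gy (log2 -2.25 ± 0.28 SE, adjusted p = 0.046). In the libraries labelled ku70 it fell as well, from 77.3 and 65.6 FPKM to 18.5 and 22.0 (-1.77 ± 0.28 SE, adjusted p = 0.025). Leaving out 1 library of the groups compared ended the call in 3 of 4 cases in DJ and in 4 of 4 in the libraries labelled ku70. At 70 Gy prx29 stood at 359, 163 and 13.2 FPKM in ATM and 271, 176 and 143 in atm-1, with controls at 73.5, 197 and 79.0 and at 16.6, 13.9 and 125, and it was not called.

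Each fall of prx29 moved with other values. Mesophyll markers summed to 46688 and 51600 FPKM in untreated DJ and 17161 and 20074 after 40 Gy, and to 75941 and 77892 against 10030 and 12781 in the libraries labelled ku70. Root markers summed to 121 and 69.8 FPKM in untreated DJ, 43.1 and 57.9 after 40 Gy, 47.7 and 53.6 in the untreated libraries labelled ku70 and 13.1 and 12.2 in the irradiated ones. Of the 3 root markers, 2 were at 0 in each of these libraries except untreated DJ replicate 2, where 1 was. The part of mesophyll and root markers in the falls was not tested.

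The authors' deposited table for DJ at 40 Gy lists 775 genes, where 40718 genes are listed for the 10 libraries of this set. It holds 11 of the 166 peroxidases, 5 higher and 6 lower. The authors' deposited table gives prx29 a log2 fold change of -2.27 (adjusted p = 0.0017), and prx117, poxN, prx61, prx115 and Pox positive ones. Its falls also include prx65, OsPOD, PRX125, Os01g0378100 and prx86. In the fit here prx65 stood at 170 and 135 FPKM untreated and 46.1 and 59.1 after 40 Gy, and PRX125 at 203 and 137 and then 6.49 and 32.98, with no overlap and without a call.

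In the libraries labelled ku70, 8 of 62 members were called after 40 Gy (12.9%, against 9.92% of all genes). Of these, 5 rose (2.84% of all genes rose) and 3 fell (7.08% of all genes fell). The median log2 difference was -0.47 over the members and -0.29 over all genes. With libraries scaled to their median these were -0.28 and -0.10, and 7 members rose and 1 fell. The share of all genes called under that scaling is not given.

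OsPOD (Os01g0294700) rose from 3.93 and 7.36 FPKM to 82.5 and 102 (3.85 ± 0.65 SE, adjusted p = 0.028). prx65 (Os05g0134400) rose from 8.17 and 4.06 FPKM to 35.2 and 60.4 (2.79 ± 0.40 SE, adjusted p = 0.020). prx115 rose from 2.61 and 0.785 FPKM to 30.8 and 34.2, prx89 from 3.56 and 3.05 to 32.1 and 18.5, and prx16 from 8.82 and 6.84 to 55.3 and 32.5. No irradiated ku70 library overlapped an untreated one for these 5 genes, which were called on the same libraries. Leaving out 1 of the 4 libraries gave 1 to 6 called members in place of 8.

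Besides prx29, Os01g0172600 fell from 11.5 and 5.68 FPKM to 0 and 0, and prx98 from 2.74 and 1.91 FPKM to 0 and 0. Both overlap a gene on the other strand, and prx98 reached the level needed for a test only through the untreated libraries labelled ku70. The 2 irradiated libraries held reads for 25 and 27 peroxidase genes, the fewest of all 30, against 49 and 43 untreated, and the part of this in the 2 falls to 0 was not tested. OsPOD, prx65 and prx16 were the members called both here and in top6a3, 3 of 8 and 3 of 21. They rose in both, and all 21 calls in top6a3 were rises, 27.3% of the members tested there. The share of all genes called in both comparisons was not counted. Leaving out 1 library ended the ku70 call of OsPOD in 4 of 4 cases and those of prx65 and prx16 in 3 of 4.

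The response to 40 Gy differed between the libraries labelled ku70 and DJ for 1 of 62 members, prx65 (log2 4.31 ± 0.57 SE, adjusted p = 0.048), against 1.15% of all genes, 0.390% upward. DJ held 170 and 135 FPKM of prx65 untreated and 46.1 and 59.1 after 40 Gy, whereas the libraries labelled ku70 held 8.17 and 4.06 and then 35.2 and 60.4. After 40 Gy the libraries of the lines overlapped, and untreated they did not. In untreated leaves prx65 was lower in the libraries labelled ku70 (log2 -4.48 ± 0.40 SE, adjusted p = 0.021), the 1 call of 62 members, against 0.620% of all genes and 0.225% lower. OsPOD followed the same order, at 222 and 118 FPKM in untreated DJ and 3.93 and 7.36 in the libraries labelled ku70, without a call (adjusted p = 0.076). The interaction and the untreated comparison share their untreated libraries. Leaving out 1 library ended the prx65 call in 8 of 8 cases for the interaction and in 3 of 4 for untreated leaves.

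At 40 Gy itself, the libraries labelled ku70 and DJ differed for 0 members, against 2.75% of all genes, and 10 members (16.1%, against 18.1% of all genes) had an unadjusted p under 0.05. The nearest were Os01g0172600, at 4.57 and 15.5 FPKM in DJ and listed at 0 in both labelled ku70 (adjusted p = 0.081), and POX22.3, at 0 and 2.37 FPKM in DJ and 28.4 and 14.2 in those labelled ku70 (adjusted p = 0.092). Limma-voom on recovered reads called 4 members here, all lower in those labelled ku70. The share of all genes called by limma-voom is not given, so the 4 cannot be set beside it. In the main fit 1.89% of all genes were called lower and 0.863% higher.

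**Figure D5:**
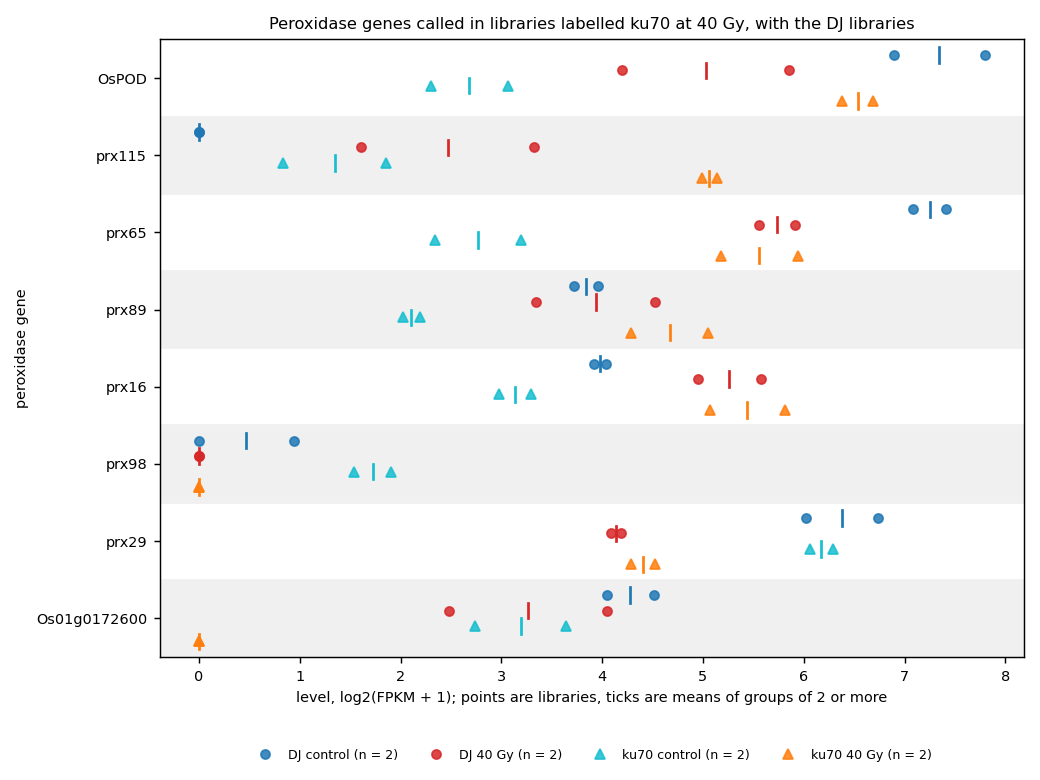
Levels of the 8 members called in the libraries labelled ku70 at 40 Gy as log2(FPKM + 1), for DJ (circles) and ku70 (triangles), untreated and at 40 Gy, with 2 libraries each. For prx65 and OsPOD the untreated DJ libraries lie highest and the untreated ku70 libraries lowest. For prx29 both irradiated pairs lie left of both untreated pairs.

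Among genes of related enzymes in DJ after 40 Gy, 1 of 65 phenylpropanoid genes rose and 1 fell (1.54% each). Of all genes 0.481% rose and 0.546% fell. In DJ 1 of 5 laccases fell, and the other 6 lists had 0 calls. In the libraries labelled ku70, 5 of 65 phenylpropanoid genes rose and 5 fell (7.69% each, against 2.84% and 7.08% of all genes). There 2 of 8 peroxiredoxins, 1 of 7 glutathione peroxidases (OsGpx4, log2 -3.59) and 1 of 5 laccases fell. CATC fell from 1184 and 973 FPKM to 243 and 224, and 1 of 10 ascorbate peroxidases rose and 1 fell. NADPH oxidases and superoxide dismutases had 0 calls among 8 and 7 there.

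The 2 libraries labelled TOP6A3-OE1 at 40 Gy have no untreated partner and no replicate. Of 52 members at 1 FPKM or more in either, 9 differed by 2 or more on the log2 scale, 2 higher and 7 lower in TOP6A3-OE1 atm-2, against 6.76% of all genes, 3.49% higher and 3.26% lower. With a pseudocount of 0.1 there were 21 (40.4%, against 16.4% of all genes). POX8.1 stood at 621 FPKM in the library labelled TOP6A3-OE1, 30.2% of its peroxidase sum of 2057 FPKM, and at 77.4 in the one labelled TOP6A3-OE1 atm-2. It reached at most 10.2 FPKM in the DJ and ku70 libraries. poxN stood at 90.2 and 7.78 FPKM, prx117 at 31.5 and 3.78, and prx78 went the other way at 2.39 and 28.0. The share of genes with 1 to 10 reads was 5.80% and 20.8% in these libraries, and mesophyll markers summed to 17852 and 77000 FPKM. The part of either in these differences was not tested.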

How the data were processed

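Leaf RNA of 30 libraries was read as gene values that the authors deposited in 5 tables, taken as FPKM, with gene names, descriptions, lengths and coordinates. The labels name a directional library kit; the aligner, the counter and the assembly: not given in the sources used here. FPKM times gene length gave whole multiples of a step per column for 100% of values (tolerance 0.01), which gave reads per gene. The unit and the separate scaling of 20 and 10 libraries were inferred from these values, not stated in the labels. Log2 fold changes and adjusted p-values in the authors' deposited table were copied for comparison. Every library column matched a sample.

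Genes reaching 1 FPKM in 2 or more libraries of a set entered a limma-trend fit (limma 3.58.1, R 4.3.3) of log2(FPKM + 1) with group means and pooled spread, 24582 genes over 20 libraries with 10 residual degrees of freedom and 23063 over 10 with 4. Tests were two-sided with Benjamini-Hochberg adjustment over all genes. Single-library pairs were counted at a log2 difference of 2. The script was tested on simulated data. Depth limits precision for low genes.

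Members were named by rule: up to 5 called each way per comparison, the 2 smallest p-values where none was called, the 8 most abundant per set, up to 4 each way per single pair with 20 FPKM or more, and members called in comparisons sharing no library. Other named members were chosen after their values were seen. Members and lists were chosen with earlier results of these data known. Related lists were matched on descriptions, and 12 names matching catalase by letters only were dropped. Alternatives were another pseudocount, filters, scaling, limma-voom on recovered reads, array weights, a replicate block and left-out libraries. Python 3.11.15, pandas 2.3.3, numpy 2.4.6 and matplotlib 3.10.9 were used.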

Additional observations from a re-analysis of the deposited data

Results flagged for a closer look

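The response of prx65 to 40 Gy differed between the libraries labelled ku70 and those of DJ, by a log2 difference of 4.31 in the interaction test (limma, adjusted p = 0.048, 2 libraries in each of 4 groups). prx65 was lower after 40 Gy in both irradiated DJ libraries and higher in both irradiated ku70 libraries. The call was lost when any 1 of the 8 libraries was left out, with adjusted p up to 0.11.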

How the results depend on the processing

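Among alternative values for named members, 403 kept their side of the threshold, 93 lost the call, 9 gained it and 0 reversed. Array weights gave 23 after 70 Gy in ATM, 15 in atm-1, 9 for their interaction and 11 for atm-1 against ATM at 70 Gy. In the cold they gave 31 (40.3%, against 58.4% of all genes), and in top6a3 44 (57.1%, against 46.5%). They gave 0 in DJ at 40 Gy, 5 in ku70 (8.06%, against 7.32%) and 0 for the 40 Gy interaction. For untreated ku70 against DJ they gave 2 (3.23%, against 0.750%). Without both libraries of few low-read genes the counts were 5 after 70 Gy in ATM and 1 in atm-1. They were 23 in the cold (30.3%, against 47.9% of all genes) and 37 in top6a3 (48.7%, against 32.7%). No filter gave 16 in the cold, 0 in DJ, 4 in ku70 and 0 for the 40 Gy interaction, and a filter of 5 FPKM gave 5 in the cold. A pseudocount of 0.1 gave 2 in DJ, 3 for the 40 Gy interaction, 2 for untreated ku70 against DJ, 2 at 40 Gy, 16 for the atr pair and 21 for the TOP6A3-OE1 pair. Median scaling gave 0 in DJ and 0 for the 40 Gy interaction. Limma-voom on recovered reads gave 0 for that interaction, 0 for untreated ku70 against DJ and 4 at 40 Gy, and its 1 call in DJ was a rise. The cause of these changes was not tested. Where no share of all genes is given, a count here or below shows only how far the calls moved.

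Leaving out 1 library gave 0 to 1 called members after 70 Gy in ATM (1 without ATM 70 Gy replicate 1), 0 to 1 for atm-1 against ATM at 70 Gy (1 without ATM 70 Gy replicate 1 or 2), 10 to 18 in the cold (18 without atm-1 control replicate 2), 15 to 18 in top6a3, 0 to 2 in DJ (0 without 40 Gy replicate 1, 2 without replicate 2), 1 to 6 in ku70 (1 without either control, 2 without 40 Gy replicate 1), 0 to 3 for the 40 Gy interaction (3 without DJ 40 Gy replicate 2), 0 to 3 for untreated ku70 against DJ (3 without ku70 control replicate 1) and 0 to 2 for ku70 against DJ at 40 Gy.

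Replicate numbers did not pair libraries: correlations of same-numbered deviations ran from -0.48 to 0.26, and not every library correlated best with its own number. With the replicate number as a block, counts were 0 in DJ, 1 in ku70, 0 for the 40 Gy interaction, 3 for untreated ku70 against DJ and 0 at 40 Gy, and 0 in the 5 comparisons of ATM and atm-1. The groups of the cold and top6a3 comparisons share too few numbers for a block. Low genes are limited by depth, and single-library groups by the lack of a replicate.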
